A study of Mus musculus with 6 samples.

Results

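The miR-200 family, together with miR-203 and miR-205, was followed in small RNA libraries of mouse iBN cells before and after induction of the transcription factor PU.1. Members were taken by name, as every arm of the hairpins miR-200a, miR-200b, miR-200c, miR-141, miR-429, miR-203 and miR-205 in the deposited table. This gave 14 of 1915 mature names, of which 11 had at least 1 read and 3 (miR-429-5p, miR-203-5p and miR-205-3p) had 0 reads in every library. Each member has a single entry in the table.

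iBN cells are described by the labels as granulocyte-macrophage progenitors, were kept as a suspension culture in medium with serum and GM-CSF, and all carry the inducible PU.1 system. The uninduced group (n = 3 libraries) received no doxycycline, and the induced group (n = 3) was held in 1000 ng/ml doxycycline for 72 hours. Both groups hold trials 1, 2 and 3. Induced cells therefore differ from uninduced ones in the drug as well as in PU.1, and cells given the drug without the inducible gene were not analysed here.

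The libraries held 8697384 to 13946613 reads after 1 entry was kept per mature name. Levels are given in CPM, reads divided by library size after TMM scaling. In a single library, an arm without reads could have a level of up to 0.220 to 0.336 CPM (3 counts). This limit and the intervals below cover counting error only, since no molecular identifiers are described. For the labelled cell type, 6 myeloid microRNAs were summed, miR-223-3p, both arms of miR-142a, miR-155-5p, miR-146a-5p and miR-21a-5p. Their summed level was 81228 to 103792 CPM in the uninduced and 91876 to 106220 CPM in the induced libraries. Most of it was miR-142a-5p, at a mean of 62466 CPM over the 6 libraries, while miR-146a-5p averaged 5.49 CPM. The sum therefore mainly followed miR-142a-5p and cannot settle the lineage.

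The miR-200 family is known as a guardian of epithelial identity. Its members bind the mRNAs of the repressors Zeb1 and Zeb2, which in turn silence the family's own genes, so that the family is usually high in epithelia and low in mesenchymal and most blood cells. miR-203 is known for restraining the growth of skin progenitors, and miR-205 as a microRNA of stratified and glandular epithelium that shares Zeb targets with the family. A microRNA recognises its targets mainly through its seed, bases 2 to 8, and the miR-200 family falls into a pair of seed groups that differ by a single base.

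The mature sequences of the main arms are shown because the comparisons below rest on which arms share a seed. They come from RefSeq (build GRCm38.p6), where all 14 names matched, and are written 5′ to 3′ with the seed in capitals. The first 3 share the seed AAUACUG, the next 2 the seed AACACUG, and the last 3 have seeds that no other mouse name in that table has.
miR-200b-3p: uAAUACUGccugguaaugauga
miR-200c-3p: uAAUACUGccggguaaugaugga
miR-429-3p: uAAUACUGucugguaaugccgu
miR-200a-3p: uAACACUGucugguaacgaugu
miR-141-3p: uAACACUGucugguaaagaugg
miR-141-5p: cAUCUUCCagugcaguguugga
miR-203-3p: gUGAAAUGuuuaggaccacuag
miR-205-5p: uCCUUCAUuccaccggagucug

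Counted from 1 at the 5′ end, the seed groups differ by U4C, with miR-200b-3p as the reference and miR-200a-3p or miR-141-3p as the other sequence. Over 22 bases compared without gaps, miR-200b-3p and miR-200c-3p differ by U11G and A22G. miR-200a-3p and miR-141-3p differ by C17A and U22G. The other pairs of 3p arms differ at 4 or 5 positions. How the authors' counting treated reads that match several names with mismatches is not stated in the sources used here. None of the 6 tested members, nor miR-203-3p, had counts within 1% of another name in every library. The rarer members were not compared in this way.

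The family is encoded in 2 clusters that each mix the seeds. In GRCm38 the miR-200b, miR-200a and miR-429 hairpins lie at chr4:156053905-156055750 on the minus strand, a span of 1846 bases. GENCODE M21 places miR-200b and miR-200a in introns of the minus-strand genes Ttll10 and Gm13648, and miR-429 in an intron of Ttll10 and over an exon of Gm13648. The miR-200c and miR-141 hairpins lie at chr6:124717914-124718390 on the minus strand, a span of 477 bases, in the noncoding gene Gm15884, with miR-141 also over an exon of the unreviewed gene model Gm29008. Their nearest protein-coding neighbours are Phb2, 963 bases from miR-141, and Ptpn6, 2316 bases from miR-200c on the same strand, which encodes the phosphatase SHP-1 of blood cells. The miR-203 hairpin (chr12:112130880-112130955, plus strand) overlaps no GENCODE gene in a search that left out microRNA genes. The miR-205 hairpin (chr1:193507463-193507530, minus strand) lies over an exon of the noncoding gene 4631405K08Rik.

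Of the 14 members, 6 passed the filter on low counts and could be tested, all of them arms of the miR-200 family. Of these, 3 rose with induction, 0 fell and 3 did not pass edgeR's quasi-likelihood test at an adjusted p of 0.05. In the same fit over 525 microRNAs, 32 passed, or 6.1% (3.43% passed as higher). The tested members had a median log2 fold change of 1.03, against 0.02 for all tested microRNAs. miR-200a-3p and miR-429-3p reached the filter of 0.97 CPM in 3 libraries only through the induced group, so the count and the median lend no support to a direction. In bulk libraries such as these, more cells that make a microRNA and more of it per cell cannot be told apart.

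**Figure D1:**
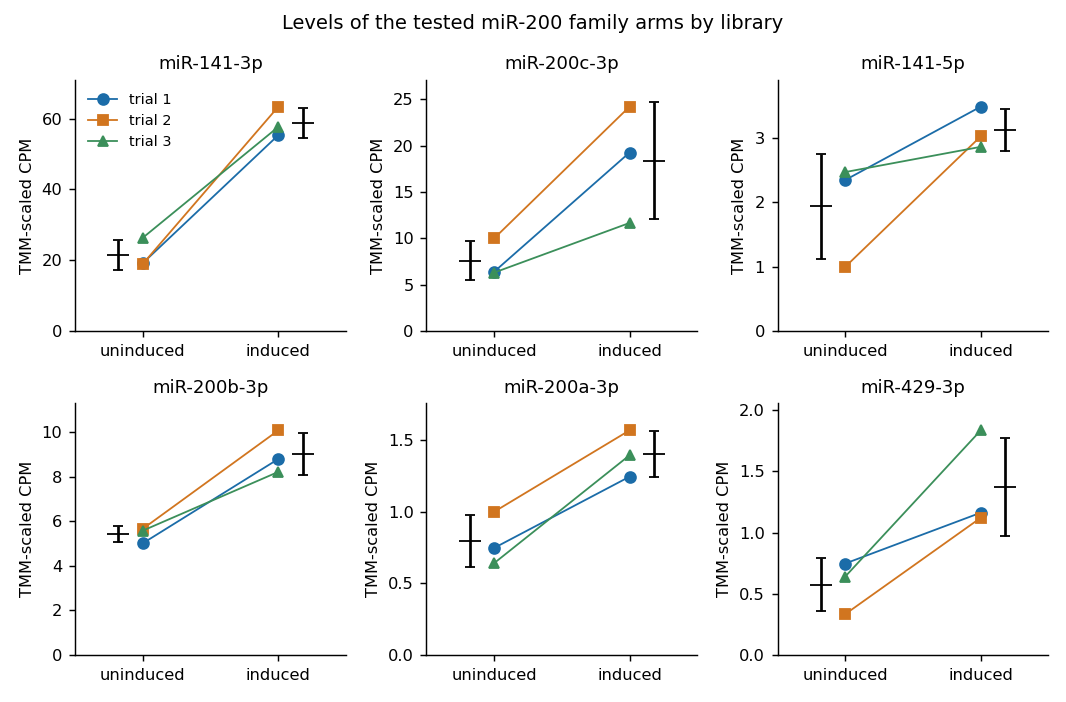
TMM-scaled CPM (vertical axis, starting at 0) of the 6 tested arms in uninduced and induced libraries, with a line joining the libraries of a trial and black marks for the mean ± SD (n = 3). In every panel the 3 induced libraries lie above the 3 uninduced ones, and miR-141-3p reaches the highest level, 63.3 CPM in induced trial 2.

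mmu-miR-141-3p (the prefix marks the mouse name) was the most abundant member in each of the 6 libraries. Its reads were 180, 171 and 288 in uninduced trials 1, 2 and 3 and 666, 565 and 785 in the induced ones. These correspond to 19.2, 19.0 and 26.4 CPM and to 55.3, 63.3 and 57.7 CPM, so the groups lay well apart. Group means were 21.5 CPM ± 4.19 and 58.8 CPM ± 4.13 (SD, n = 3 each). The edgeR log2 fold change was 1.45 (SE 0.17, adjusted p = 8.0e-04), the 9th largest rise among the 525 tested. With any single library left out it still passed, with adjusted p between 1.0e-04 and 0.014.

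mmu-miR-200c-3p, cut from the neighbouring hairpin, also rose but varied more between trials. It had 6.41, 10.0 and 6.32 CPM in uninduced trials 1, 2 and 3 and 19.3, 24.2 and 11.7 CPM after induction. Trial 3 gave the lowest level within each group, and the induced library of that trial lay only just above the uninduced library of trial 2. The log2 fold change was 1.28 (SE 0.29, edgeR adjusted p = 0.035). The induced libraries spread 25.7 times as widely as counting error alone would give, in variance, against 2.92 times for miR-141-3p. In the uninduced libraries the order on this measure was reversed, at 5.54 times for miR-200c-3p and 8.27 times for miR-141-3p. The call of miR-200c-3p was lost without uninduced replicate 1 (edgeR adjusted p = 0.189), induced replicate 1 (0.088) or induced replicate 2 (0.153). It was also lost in limma-voom (adjusted p = 0.061). With the trial as a block, the edgeR adjusted p was 1.3e-04, but the call was lost from that fit without trial 3 (0.054).

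The passenger arm mmu-miR-141-5p, whose seed differs from those of all 3p arms, had much lower levels. It had 22, 9 and 27 reads in uninduced and 42, 27 and 39 reads in induced trials 1, 2 and 3, or 1.94 CPM ± 0.82 and 3.13 CPM ± 0.32 (SD, n = 3 each). The groups did not overlap, but the margin between 2.47 CPM in uninduced trial 3 and 2.86 CPM in induced trial 3 was small. Its log2 fold change of 0.67 (SE 0.32) did not pass (edgeR adjusted p = 0.267, and 0.123 with the trial as a block).

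The miR-141 hairpin is shown with both mature arms in capitals, the 5p arm first, because both were counted and gave different values.
miR-141 hairpin: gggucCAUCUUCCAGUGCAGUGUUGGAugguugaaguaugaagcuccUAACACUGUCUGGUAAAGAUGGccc
miR-141-5p made up 8.32% of the hairpin's reads over the uninduced libraries (58 of 697 reads, 95% Wilson interval 6.49 to 10.6) and 5.08% over the induced ones (108 of 2124 reads, 4.23 to 6.10). By library the shares were 10.9%, 5.00% and 8.57% in uninduced trials 1, 2 and 3 and 5.93%, 4.56% and 4.73% in the induced ones. The groups overlapped, since uninduced trial 2 lay within the induced range, while the share was lower in the induced library of each trial. The 5p arm was rarer at the other hairpins with many reads, at 8 of 834 reads for miR-200c (0.96%, 0.49 to 1.88) and 5 of 472 for miR-200b (1.06%, 0.45 to 2.46) over all libraries.

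In the cluster on chromosome 4, mmu-miR-200b-3p was the main product. It had 47, 51 and 61 reads in uninduced and 106, 90 and 112 reads in induced trials 1, 2 and 3. These gave 5.02, 5.67 and 5.59 CPM without and 8.80, 10.1 and 8.23 CPM with induction, groups that lay apart with little spread inside each. The spread was 0.22 times the counting variance in the uninduced and 1.06 times in the induced libraries. The log2 fold change was 0.73 (SE 0.19), with an edgeR adjusted p of 0.0499 that lies just inside the threshold. That call was lost in all 6 fits leaving out 1 library (adjusted p 0.059 to 0.189) and in DESeq2 (0.120) and limma-voom (0.061), while the fit with the trial as a block gave 0.0054. From the blocked fit the call was lost without trial 2 (0.071) or trial 3 (0.085). The sign of the change was positive in every fit.

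mmu-miR-429-3p and mmu-miR-200a-3p, the other products of that cluster, were near the limit of testing. miR-429-3p had 7, 3 and 7 reads uninduced and 14, 10 and 25 reads induced in trials 1, 2 and 3, or 0.57 CPM ± 0.21 and 1.37 CPM ± 0.40 (SD, n = 3 each). Its log2 fold change of 1.26 (SE 0.40) did not pass (edgeR adjusted p = 0.106). It passed with the trial as a block (adjusted p = 0.043), but not when trial 1, 2 or 3 was left out of that fit (0.092, 0.191 and 0.272). miR-200a-3p had 7, 9 and 7 reads uninduced and 15, 14 and 19 induced, or 0.80 CPM ± 0.18 and 1.40 CPM ± 0.16 (SD, n = 3 each). Its log2 fold change was 0.81 (SE 0.33), with an edgeR adjusted p of 0.187, and of 0.118 with the block.

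For all 6 tested members the libraries of the groups lay apart in CPM, higher in the induced libraries. Among all 525 tested microRNAs, 16% had groups that lay apart in that direction. For miR-429-3p and miR-200a-3p the filter favours that direction. With the trial as a block 4 of the 6 passed, where 114 of 525 microRNAs passed, or 21.7%. DESeq2 passed 2 of the 6 (6.77% of 591 microRNAs with an adjusted p) and limma-voom 1 (4.19% of 525).

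**Figure D2:**
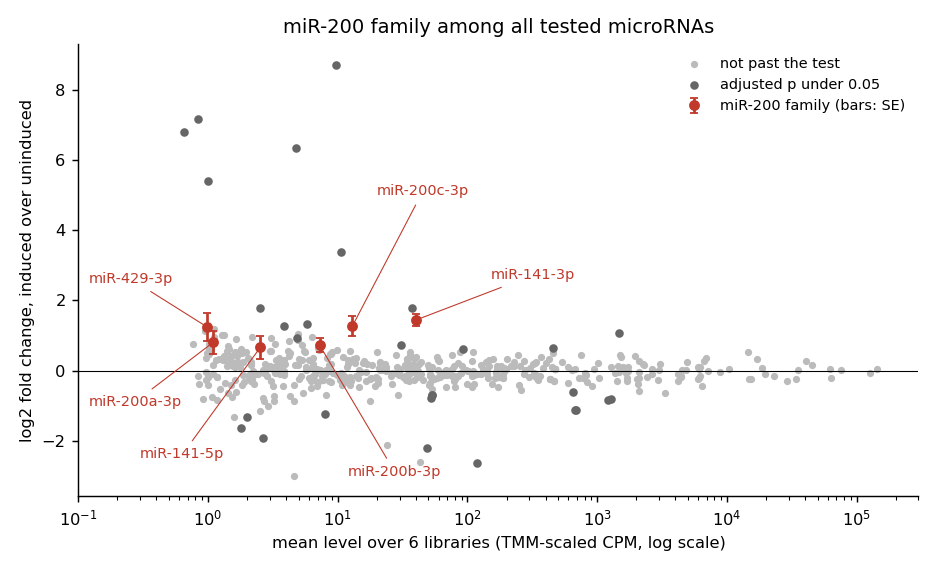
Log2 fold change (vertical axis) against the mean level over the 6 libraries (horizontal axis, CPM on a log scale) for the 525 tested microRNAs, with those past an adjusted p of 0.05 in dark grey and the 6 miR-200 family arms in red with SE bars. The family lies at the low to middle end of abundance, and its values range from 0.67 for miR-141-5p to 1.45 for miR-141-3p.

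Ratios within a trial showed where the counts themselves resolve a difference. For miR-141-3p the induced over uninduced ratio was 2.88, 3.33 and 2.19 in trials 1, 2 and 3, with a lowest bound of 1.91 (95% exact counting interval in trial 3). For miR-200c-3p it was 3.01, 2.42 and 1.85, with a lowest bound of 1.38, also in trial 3. For miR-200b-3p it was 1.75, 1.78 and 1.47, and the interval of trial 3 reached down to 1.07. Trial 3 gave the smallest ratio for these 3 arms and for miR-141-5p, but the largest for miR-200a-3p. miR-141-5p gave 1.49, 3.03 and 1.16, of which trial 2 alone had an interval above 1. None of the single-trial intervals for miR-200a-3p lay above 1, nor did those of miR-429-3p in trials 1 and 2.

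**Figure D3:**
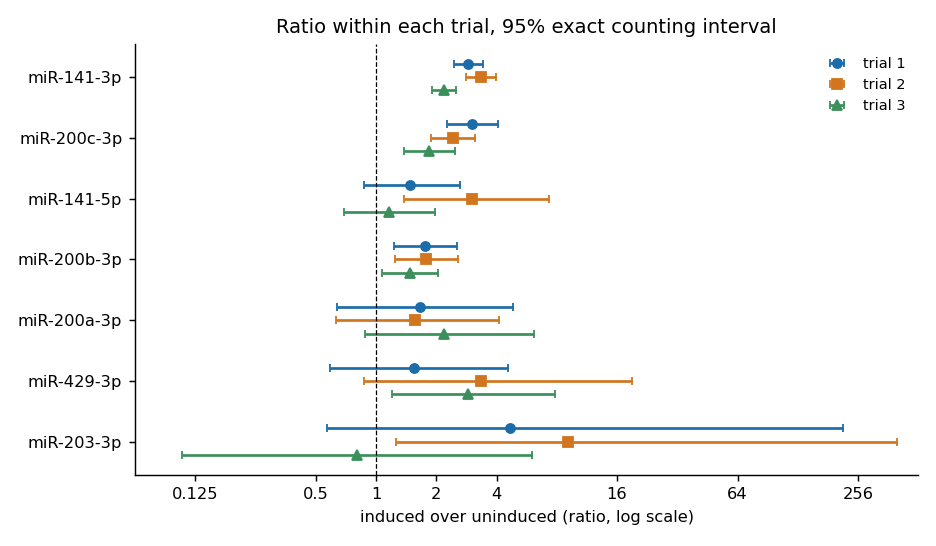
Induced over uninduced ratio (horizontal axis, log scale) in each trial for the 6 tested arms and miR-203-3p, with 95% exact intervals for counting error and a dashed line at 1. The intervals of miR-141-3p and of the 3p arms of miR-200c and miR-200b lie above 1 in all 3 trials, and those of miR-203-3p span the widest range.

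The clusters were next compared as sums over all their arms, as a description without a test. The miR-200c and miR-141 cluster had 28.0, 30.0 and 35.4 CPM in uninduced and 78.3, 90.6 and 72.3 CPM in induced trials 1, 2 and 3. Its ratio of group means was 2.58, with 2.80, 3.02 and 2.04 within the trials. The miR-200b, miR-200a and miR-429 cluster had 6.51, 7.11 and 7.05 CPM and then 11.5, 13.0 and 11.8 CPM, a ratio of 1.75, with 1.76, 1.83 and 1.67 within the trials. In each trial the cluster on chromosome 6 had the larger ratio, by the least in trial 3.

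The family as a whole summed to 38.0 CPM ± 4.08 before and 92.5 CPM ± 10.0 after induction (SD, n = 3 each), or 0.00379% and 0.00915% of the reads. The miR-200c and miR-141 cluster supplied 81.1%, 80.8% and 83.4% of the family's reads in uninduced and 87.2%, 87.4% and 86.0% in induced trials 1, 2 and 3. The shares did not overlap between the groups, although the 95% Wilson interval of uninduced trial 3 (79.7 to 86.5%) reached past the lowest induced value. miR-200b-3p took 14.3% ± 1.08 of the family's reads before and 9.78% ± 0.03 after induction (SD, n = 3 each). That SD of 0.03 understates the counting error. In induced trial 2, with 90 of 924 reads, the 95% Wilson interval was 7.99 to 11.8%.

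**Figure D4:**
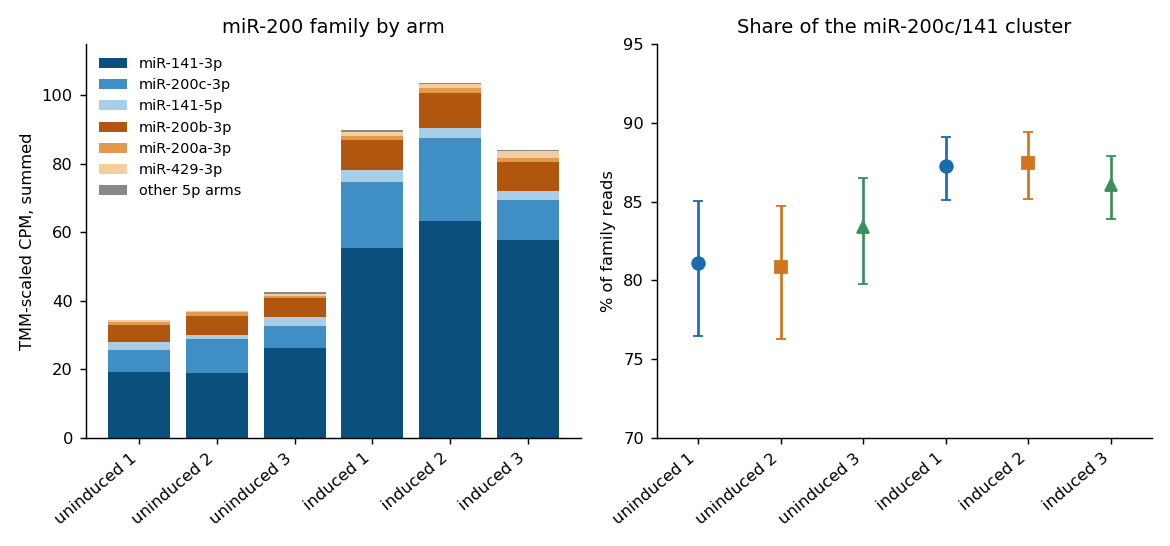
Left, summed TMM-scaled CPM of the miR-200 family in each library, stacked by arm, with arms of the chromosome 6 cluster in blue and of the chromosome 4 cluster in orange; right, the share of the chromosome 6 cluster in the family's reads (axis from 70 to 95%) with 95% Wilson intervals. The induced bars reach 84.1 to 104 CPM against 34.5 to 42.5 CPM, and the induced shares lie between 86.0% and 87.4%.

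Ratios between members were tested for 3 pairs across the 6 libraries with a two-sided exact permutation test that did not use the pairing by trial, for which 0.10 is the smallest p that 3 against 3 libraries allow. The reads of miR-141-3p over those of miR-200b-3p were 3.83, 3.35 and 4.72 in uninduced and 6.28, 6.28 and 7.01 in induced trials 1, 2 and 3, groups that did not overlap (exact p = 0.10, adjusted over the 3 ratios 0.30). miR-200c-3p over miR-200b-3p was 1.28, 1.76 and 1.13 uninduced and 2.19, 2.40 and 1.42 induced, groups that overlapped (exact p = 0.20, adjusted 0.30), with the induced library higher in each of the 3 trials. Within the chromosome 6 cluster, miR-141-3p over miR-200c-3p was 3.00, 1.90 and 4.17 uninduced and 2.87, 2.62 and 4.94 induced (exact p = 0.70, adjusted 0.70). That ratio was highest in trial 3 and lowest in trial 2 of both groups.

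The arms were also summed by seed, in place of cluster. The AACACUG arms, miR-141-3p and miR-200a-3p, averaged 22.3 CPM ± 4.06 before induction and 60.2 CPM ± 4.29 after it (SD, n = 3 each), a ratio of 2.69. The AAUACUG arms, miR-200b-3p, miR-200c-3p and miR-429-3p, averaged 13.6 CPM ± 2.11 and 28.8 CPM ± 6.86 (SD, n = 3 each), a ratio of 2.12. Within trials 1, 2 and 3 the AACACUG ratios were 2.83, 3.24 and 2.19 and the AAUACUG ratios 2.40, 2.21 and 1.73. AACACUG arms held 62.1%, 55.6% and 68.3% of the 3p reads in uninduced and 65.9%, 64.7% and 73.1% in induced trials 1, 2 and 3, shares that overlapped between the groups but were higher in the induced library of each trial. Trial 3 had the highest share in each group and trial 2 the lowest. miR-141-3p and miR-200c-3p made up most of their seed group, so the seed sums mainly followed these arms.

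In order of their uninduced means, the arms ran from miR-141-3p (21.5 CPM) through miR-200c-3p (7.58 CPM), miR-200b-3p (5.42 CPM), miR-141-5p (1.94 CPM) and miR-200a-3p (0.80 CPM) to miR-429-3p (0.57 CPM). Neighbours whose libraries overlapped in the uninduced group were miR-141-5p with miR-200a-3p, at 1.00 CPM each in trial 2, and miR-200a-3p with miR-429-3p. After induction the order of the means was the same, and miR-200a-3p and miR-429-3p again overlapped, at means of 1.40 and 1.37 CPM. Adapter ligation captures sequences unequally, so these orders describe the libraries and not molecule numbers.

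The 5 untested members with reads were rare in both groups. mmu-miR-203-3p had 1, 1 and 3 reads in uninduced and 6, 9 and 3 reads in induced trials 1, 2 and 3. Summed over the groups this was 5 and 18 reads, a ratio of 3.05 (95% exact counting interval 1.09 to 10.5), but trial 3 had the same number of reads in both groups and a ratio of 0.80 (0.11 to 5.99). Its antisense hairpin, miR-203b, yields the complementary sequence, and the use of strand in counting is not stated in the sources used here.

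mmu-miR-205-5p had 0 reads in the 3 uninduced libraries and 5, 0 and 2 reads in the induced ones. Against a floor of 3 counts for the whole uninduced group, its 7 induced reads gave a ratio of 1.98. This ratio leaves out the counting error of the 7 reads, so it is not a lower bound. One induced library, that of trial 2, also had 0 reads, which allowed up to 0.336 CPM, so the libraries of the groups overlapped.

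The passenger arms mmu-miR-200a-5p, mmu-miR-200b-5p and mmu-miR-200c-5p had at most 3 reads in any library. Their sums over the uninduced and induced groups were 2 and 5 reads (ratio 2.12, 95% exact counting interval 0.35 to 22.2), 1 and 4 reads (3.39, 0.34 to 167) and 3 and 5 reads (1.41, 0.27 to 9.09). A difference between the groups was not detectable at this depth for any of these. For the 3 arms with 0 reads throughout, the count allowed up to 0.102 CPM over the uninduced and 0.0868 CPM over the induced group.

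**Figure D5:**
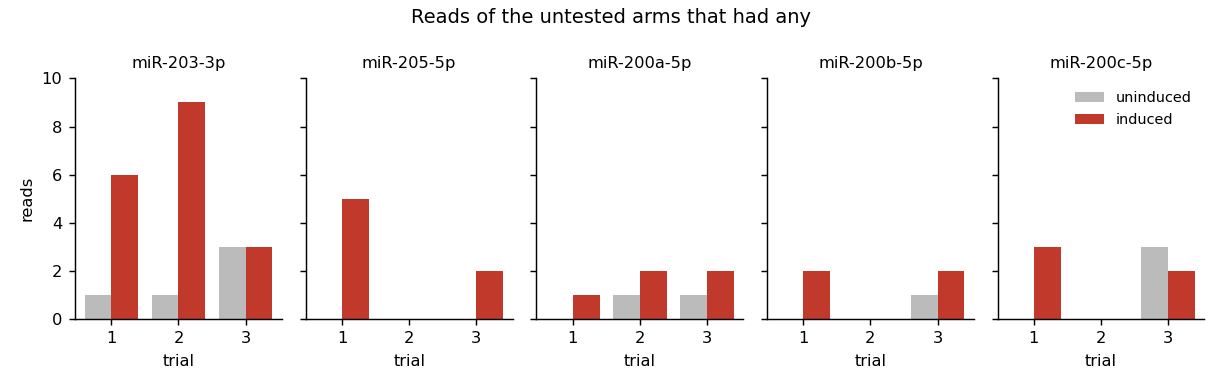
Reads (vertical axis) of the 5 untested arms that had any, by trial, with uninduced libraries in grey and induced ones in red. miR-203-3p reached 9 reads in induced trial 2 and had 3 reads in both libraries of trial 3, and miR-205-5p had reads in induced trials 1 and 3 alone.

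Other microRNAs known from epithelia were followed from a list of 12. Of these 9 could be tested, of which 1 rose, 1 fell and 7 did not pass, with a median log2 fold change of 0.17. Over all 525 tested microRNAs 6.1% passed, with a median of 0.02. The one that rose was miR-449a-5p, a microRNA of ciliated epithelium, with 3.30 CPM ± 0.33 before and 8.29 CPM ± 2.01 after induction (SD, n = 3 each; log2 fold change 1.32, SE 0.24, edgeR adjusted p = 0.013). The one that fell was miR-34c-5p, which belongs to the same seed family and is known as a target of p53, with a log2 fold change of -1.24 (SE 0.29, edgeR adjusted p = 0.035). The most abundant on the list were miR-192-5p (-0.24, SE 0.11), miR-182-5p (0.27, SE 0.14) and miR-183-5p (0.23, SE 0.20), none past the test. With the trial as a block 2 of the 9 were higher and 2 lower, the additional ones being miR-182-5p (adjusted p = 0.027) and miR-194-5p (0.014). The blocked fit passed 21.7% of all 525 tested microRNAs.

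The summed level of the 12 was 22561 to 26861 CPM in the uninduced and 20568 to 24590 CPM in the induced libraries. This sum mainly followed miR-192-5p and miR-182-5p, at means of 15333 and 6720 CPM over the 6 libraries, and does not describe the list as a whole. The 3 untested names on the list were rare and did not share a direction. miR-375-3p had 6, 3 and 3 reads in uninduced and 10, 9 and 7 in induced trials 1, 2 and 3, miR-34b-5p had 6, 3 and 4 and then 1, 0 and 1, and miR-224-5p had 0 reads in all 6 libraries. Among the tested names, miR-31-5p had 3.89 CPM ± 1.31 and 1.90 CPM ± 0.86 (SD, n = 3 each), a difference that did not pass (edgeR adjusted p = 0.147). Whether cells of another type took part in the rise of the miR-200 family was not tested.

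Stromal microRNAs, which mark the mesenchymal cells where the family is usually low, were listed as 10 names of which 7 could be tested. Of these 2 fell, 1 rose and 4 did not pass, with a median log2 fold change of -0.63. Among all 525 tested microRNAs 6.1% passed, and the median was 0.02. The 2 that fell, miR-199a-3p and miR-199b-3p (-0.69 each, SE 0.15), had nearly the same counts in every library and stand for 1 measurement. Both nevertheless entered the counts of calls and the median. miR-218-5p, the 1 that rose, had 0 reads in the uninduced libraries and 24, 13 and 21 in the induced ones, so that it passed the filter only through the induced group. The other abundant ones, miR-152-3p and miR-143-3p, had log2 fold changes of -0.03 (SE 0.16) and -0.39 (SE 0.18). With the block 1 was higher and 5 were lower, again with both miR-199a-3p and miR-199b-3p. The others were miR-143-3p (blocked edgeR adjusted p = 0.0082), miR-145a-5p (0.042) and miR-199b-5p (0.024). That fit passed 21.7% of all 525 tested microRNAs. The summed level was 455 to 529 CPM in the uninduced and 328 to 418 CPM in the induced libraries.

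Finally, the 321 tested microRNAs outside the family with at least 10 CPM on average were ranked by how closely their log2 CPM over the 6 libraries followed the mean standardized profile of the 5 family 3p arms. The closest were miR-351-5p (Pearson r = 0.99), miR-330-3p (0.99), miR-484 (0.98), miR-450b-5p (0.98) and miR-322-5p (0.96). These correlations describe 6 libraries of 2 groups, share their scaling, and carry no test. The sizes of change differed, with log2 fold changes of 1.08 (SE 0.12) for miR-351-5p, 0.64 (SE 0.13) for miR-450b-5p, 0.45 (SE 0.12) for miR-322-5p, 0.23 (SE 0.15) for miR-330-3p and 0.16 (SE 0.10) for miR-484. Of these 5, miR-351-5p (edgeR adjusted p = 7.4e-04) and miR-450b-5p (0.020) passed the test. Within the family, each 3p arm followed the mean profile of the other 4 with r between 0.69 for miR-429-3p and 0.98 for miR-200b-3p. miR-200a-3p and miR-429-3p passed the filter only through the induced group, which favours such correlations. Whether the arms change together was not tested.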

How the data were processed

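Small RNA libraries of 6 samples (3 uninduced, 3 induced) were studied through their deposited tables. The submitters' processing notes list Trim Galore 0.4.0, DESeq2 (as 2.1.8.0) and build mm10, the same assembly as GRCm38, and the series' design text states alignment to miRBase. The counter, the miRBase release and the handling of strand and of reads with several matches are not stated there. The authors deposited raw read counts per entry and, as CPM, the counts over the sum of all entries, equal within 0.005; the deposited CPM served 1 alternative.

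Of 2061 entries, the largest by total was used for each of 1915 names, which left out 17.5% of the table's reads. Tests used edgeR 4.0.16 in R 4.3.3 (TMM factors, filterByExpr by group, robust glmQLFit, glmQLFTest, two-sided, group alone, Benjamini-Hochberg over 525 tested microRNAs at 0.05), after a test on simulated data. SE is the log2 fold change over the square root of F. Ratios of reads carry exact conditional 95% intervals on TMM-scaled library sizes. Alternatives used DESeq2 1.42.0, limma 3.58.1, other scalings, filters, entries and the trial as a block.

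The labels number libraries as trials in both groups. Deviations from the group means correlated by 0.33, 0.45 and 0.53 between libraries of the same trial. The main fit and the permutation test left this pairing out, while the fit with the trial as a block used it. The block's values are printed where they change a call of a member or of a microRNA on the lists. The labels do not say that trials were separate cultures, so the spread behind the p-values may be technical. Libraries of 1 group differed by more than sampling noise in every pair (chi-square at least 98.7 per degree of freedom).

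The members, lists and tests were chosen with earlier results of these data known. Named are all members, the 3 most abundant tested microRNAs of the epithelial and stromal lists, and the 5 closest profiles; other names were chosen after their values were seen. Sequences are from RefSeq (GRCm38.p6) and gene overlaps from GENCODE M21.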

Additional observations from a re-analysis of the deposited data

How the results depend on the processing

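Over 18 alternatives each, the 6 tested members gave 108 log2 fold changes, of which 0 changed sign, 21 lost the call and 1 gained it. The call of miR-141-3p held in all 18 (log2 fold change 1.31 to 1.62). miR-200b-3p lost it in 16, miR-200c-3p in 5, and miR-429-3p gained it with the trial as a block. Fits with the block that left out a trial were chosen after seeing the data. With the replicate block 114 microRNAs passed in place of 32, and 4 members in place of 3. Leaving out 1 library gave 12 to 41 calls over all microRNAs and 1 to 2 among members, the 1 being miR-141-3p. limma-voom passed 1 member, again miR-141-3p, and DESeq2 2. Beyond miR-429-3p, the block changed no call among the members. The ratios of group means for the clusters and seed groups stayed within 1 SD of the trial ratios in every alternative run, between 1.68 and 1.80 for the chromosome 4 cluster, 2.42 and 2.77 for the chromosome 6 cluster, 1.88 and 2.38 for AAUACUG and 2.56 and 3.01 for AACACUG. The untested members had the same reads when entries were summed. Depth limits all arms under about 10 reads per library, including miR-203-3p and miR-205-5p.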

Other observations

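Markers of liver, muscle and embryonic stem cells were near the floor, while 1 neural microRNA was not. miR-122-5p of liver had 0 to 2 reads in a library. Of 3 muscle microRNAs 0 could be tested, and their summed level was at most 0.367 CPM in any library. Of 8 embryonic stem cell microRNAs 0 could be tested and 6 had no read, with a summed level of at most 0.914 CPM. Among 3 neural microRNAs, miR-124-3p had 0 reads. miR-9-5p had 4, 2 and 5 reads in uninduced and 11, 13 and 14 in induced trials 1, 2 and 3. miR-128-3p, the 1 that could be tested, lay far above the floor, at a mean of 339 CPM over the 6 libraries. Its log2 fold change was -0.13 (SE 0.14). Of the 6 myeloid microRNAs 0 passed edgeR without the block (median log2 fold change 0.05), and 1 was higher with it, miR-146a-5p (adjusted p = 0.037). Over all 525 tested microRNAs, 6.1% passed without the block and 21.7% with it.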
